A study of Homo sapiens with 15 samples.

Results

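Senescent HT-1080 cells that had been exposed to the kinase inhibitor GNF-7 for 24 h were compared with cycling HT-1080 cells that had received only the vehicle DMSO, to ask which genes lay at the cycling level, beyond it or still away from it. The comparison was defined by the labelled state, treatment and time, and it used 6 of the 15 RNA sequencing libraries of the series, 3 in each group. HT-1080 is an established line from a human fibrosarcoma. The senescent cells had carried a dominant negative form of the telomere protein TRF2 for 6 days, which uncaps telomeres, and then received 1 uM GNF-7 for 24 h. The cycling libraries carry a time label of 6 h. Cell state, treatment and time therefore differ together in this comparison, and their parts cannot be told apart within it. The 3 libraries of senescent cells in DMSO for 24 h served as a reference for what senescence had changed; that reference also differs from the cycling cells in time. All cultures were kept in medium with tetracycline-free serum at low oxygen. Whether the cycling cells held the TRF2 construct is not given in the sources used here, nor whether the replicates, labelled as biological, were separate inductions, so p-values measure the spread between these libraries. All comparisons below share the cycling libraries or the 24 h libraries.

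Senescence is a lasting exit from the cell cycle in which cells silence replication and mitosis genes, keep the p53 target CDKN1A high, enlarge their lysosomal compartment and secrete cytokines, proteases and matrix proteins, the senescence-associated secretory phenotype (SASP). GCN2, the product of EIF2AK4, is a kinase that senses amino acid shortage and phosphorylates the translation factor eIF2 alpha. This slows general translation and favours translation of ATF4, a transcription factor that, with partners of the C/EBP family, switches on genes for amino acid synthesis, uptake and tRNA charging. The whole is called the integrated stress response (ISR). The title of the study names GCN2 as the kinase through which GNF-7 acts on senescent cells.

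Library totals ranged from 25991007 to 32323393 counts, and 18563 genes passed the filter on low counts. Values are CPM, counts scaled to the usual common library size after TMM adjustment, differences are log2 fold changes from edgeR with their standard error (SE), and a gene is called at a Benjamini-Hochberg adjusted p under 0.05. TERF2, whose product was the target of the construct, had 55.7, 56.6 and 62.4 CPM in cycling libraries, 222, 212 and 226 CPM in senescent vehicle libraries and 128, 138 and 130.0 CPM with GNF-7, so the labelled states were separate in every library. The counts do not tell the construct from the native gene, which lies at chr16:69355561-69408571 on the minus strand of GRCh38. The mesenchymal markers VIM, FN1, CD44 and MMP14 were high in every library, NT5E and S100A4 were low, and the epithelial, leukocyte and endothelial markers were at or near 0. Transcripts of the mitochondrial genome made up 23.3% ± 0.767 (SD, n = 3) of counts with GNF-7, 16.9% ± 1.80 in senescent vehicle cells and 4.32% ± 0.637 in cycling cells. The exact two-sided permutation test gave p = 0.1 for each pair of groups, the smallest value that 3 against 3 libraries allow. This share moved with the groups; with mitochondrial genes left out of the scaling, 7940 genes were higher and 6971 lower, against 7935 and 6968.

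Most genes were called: 7935 were higher with GNF-7 at 24 h than in cycling cells (42.7% of genes tested) and 6968 were lower (37.5%). At least 2-fold higher were 5168 (27.8%) and at least 2-fold lower 2654 (14.3%). Senescent vehicle cells had 6733 genes higher (36.3%) and 6400 lower (34.5%) than cycling cells. Of these, 3644 were raised at least 2-fold (19.6%) and 1578 were lowered at least 2-fold (8.50%), and these 5222 genes were then placed by their level with GNF-7. A gene was counted as back when the 95% interval of its difference from cycling cells lay within 1.5-fold on both sides (log2 0.585). It was still away, or beyond on the other side, when the difference exceeded 1.5-fold by the edgeR glmTreat test. That test called 30.0% of all genes higher and 21.2% lower.

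Few genes returned. Of the 3644 raised genes, 29 (0.796%) were back at the cycling level, 6 (0.165%) were beyond it, 3302 (90.6%) were still away and 307 (8.42%) met none of the conditions. Of the 1578 lowered genes, 30 (1.9%) were back, 17 (1.08%) were beyond, 1369 (86.8%) were still away and 162 (10.3%) were undecided. Against senescent vehicle cells, 1678 of all 3644 raised genes (46%) changed further from cycling, 378 (10.4%) changed toward it and 1588 were not called. Of all 1578 lowered genes, 856 (54.2%) moved further, 236 (15%) moved toward and 486 were not called. Of the genes that moved toward cycling, 227 raised and 111 lowered ones were still away. The median difference of the raised genes still away was 1.97 in vehicle and 2.62 with GNF-7, and that of the lowered genes was −1.43 and −1.80. Against vehicle at 24 h, 29.3% of all genes were higher with GNF-7 and 29.7% lower. With senescent cells in DMSO for 6 h as the reference, the time label of the cycling libraries, 28 raised genes were back, 8 beyond and 3105 still away, and 27 lowered genes were back, 13 beyond and 1229 still away. With a filter at a mean of 5 CPM, which moved the scaling so that named genes shifted by a log2 difference of 0.26, 32 raised and 22 lowered genes were back. That shift turns the sign of small differences inside the margin. It can also carry a gene that lies near an edge of the margin across that edge. PSPH, back at 0.35, and CDK4, still away at −0.71, each lie nearer to an edge than the size of the shift. The places of such genes, and not only their signs, may therefore depend on the filter. The counts follow the margin: with 2-fold in place of 1.5-fold, 125 raised and 115 lowered genes were back and 7 and 8 with a narrower margin. Just inside the margin for back lay PCDHGC5 and PPP1R14C, whose intervals reached 0.58 on the log2 scale; just outside lay THAP10 and SUCLG2-DT, at −0.58 and −0.59.

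**Figure D1:**
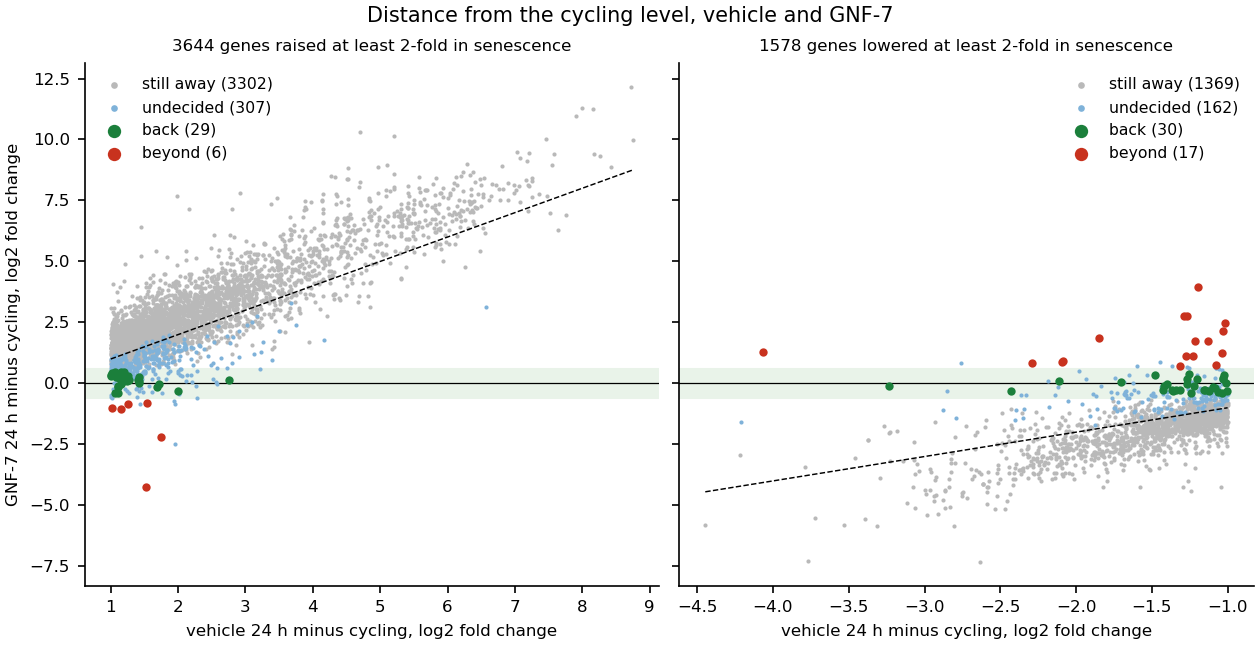
Each point is 1 gene; the horizontal axis is its log2 difference between senescent vehicle and cycling cells, the vertical axis that between GNF-7 at 24 h and cycling cells. The shaded band is 1.5-fold around the cycling level and the dashed line marks equal differences; the 29 and 30 genes that were back lie in the band, and most of the 3302 and 1369 genes still away lie near or past the dashed line.

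**Figure D2:**
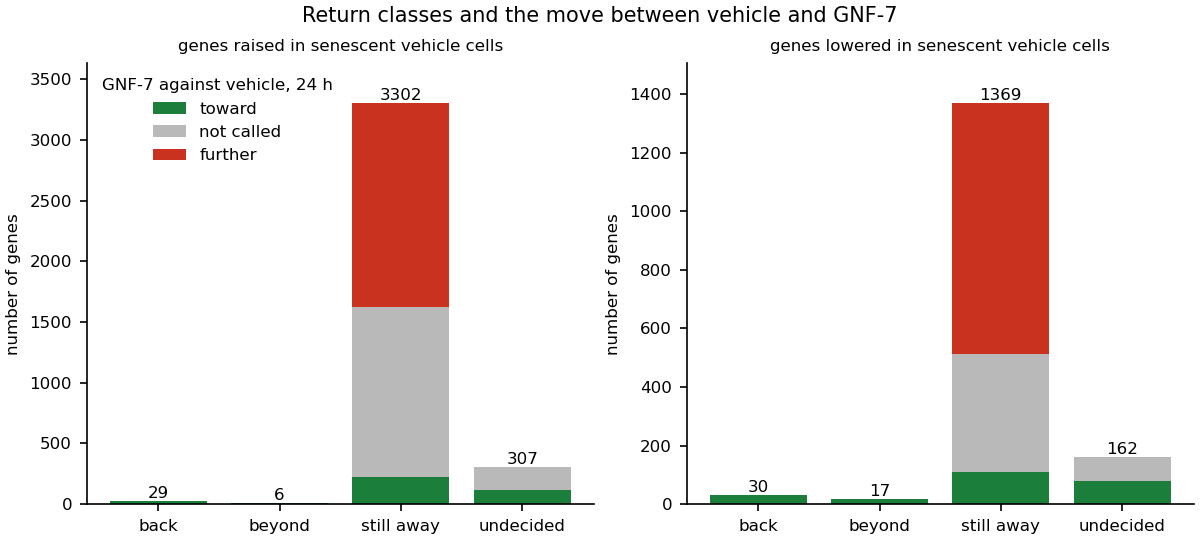
Bars count raised genes (left) and lowered genes (right) by their place with GNF-7, coloured by the direction of the edgeR call between GNF-7 and vehicle at 24 h. The 3302 and 1369 genes still away outnumber all others, and 1678 and 856 of them had moved further from the cycling level.

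None of the ISR genes that senescence had lowered at least 2-fold was still away with GNF-7. Of the 50 listed members 49 were tested, FGF21 being near 0 in all groups. In GNF-7 cells 40 were higher than in cycling cells and 9 were lower, with a median difference of 0.905, beside 42.7% higher, 37.5% lower and a median of 0.125 over all genes tested. In senescent vehicle cells 39 of the 49 were lower and 10 higher, beside 34.5% and 36.3% of all genes tested, with a median of −0.745. In vehicle 15 members had been lowered at least 2-fold by senescence; with GNF-7, 6 were back, 7 were beyond, 2 were undecided and 0 were still away, where 86.8% of all lowered genes were still away. These 13 genes were 7 of the 17 lowered genes that went beyond and 6 of the 30 that were back.

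EIF2AK4 (chr15:39934146-40035591) itself had 141, 151 and 147 CPM in cycling cells, 118, 118 and 113 CPM in vehicle and 112, 106 and 98.4 CPM with GNF-7. Its messenger RNA was thus lower than in cycling cells by a log2 difference of −0.48 (SE 0.04, edgeR adjusted p = 1.1e-15), within the 1.5-fold margin. ATF4 had 327, 327 and 326 CPM in cycling cells, 187, 194 and 194 CPM in vehicle and 618, 599 and 617 CPM with GNF-7. All 3 GNF-7 libraries lay above the cycling ones and all vehicle libraries below, and ATF4 was higher than in cycling cells by 0.91 (SE 0.03, edgeR adjusted p = 5.2e-33). Among the 9 regulators on the list 8 were higher than in cycling cells, beside 42.7% of all genes tested, with a median of 2.14.

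CHAC1, an enzyme that breaks down glutathione and an ATF4 target, went furthest beyond the cycling level among the lowered genes named by the rule. It had 8.93, 9.71 and 11.3 CPM in cycling cells, 3.86, 4.34 and 4.29 CPM in vehicle and 68.1, 69.7 and 68.9 CPM with GNF-7. The difference from cycling cells was 2.78 (SE 0.07, edgeR adjusted p = 2.3e-42), where senescence in vehicle had given −1.27. TRIB3, a pseudokinase that restrains ATF4, had 73.4, 72.7 and 75.6 CPM in cycling cells, 35.6, 37.8 and 34.9 CPM in vehicle and 325, 318 and 342 CPM with GNF-7, a difference of 2.15. CEBPG, a partner of ATF4, had 45.05, 44.8 and 45.2 CPM in cycling cells, 20.9, 21.97 and 22.99 CPM in vehicle and 106, 103 and 106 CPM with GNF-7, a difference of 1.22. ASNS, asparagine synthetase, had 1.85, 2.55 and 2.51 CPM in cycling cells, 1.08, 1.34 and 1.01 CPM in vehicle and 12.02, 13.9 and 12.8 CPM with GNF-7. In these 4 genes the 3 groups did not overlap, with vehicle lowest and GNF-7 highest. That order is required of every lowered gene counted as beyond, so it is no separate result.

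The C/EBP-ATF response element is the DNA sequence that ATF4 and C/EBP factors bind as a pair. The letters TGATGNAA were searched on both strands of the 250 bases upstream of transcription starts in RefSeq (GRCh38.p14), which covered 12111 of 18485 matched genes with 17447 windows. They occurred in 333 windows of all genes tested (1.91%), in 4 of 15 windows of lowered genes beyond (26.7%), in 4 of 28 windows of lowered genes back (14.3%) and in 23 of 1429 windows of lowered genes still away (1.61%). The holders beyond were ASNS, CEBPG, CHAC1 and LINC02806, and those back were BCAT1, BCL2A1, SLC1A5 and TBL1X. With the 6 h vehicle reference the shares were 10% beyond and 10.3% back, and with the 2-fold margin 36.4% beyond and 5.43% back. A match describes these letters, not a bound site, and other motifs may overlap it. Shown are the windows of 3 genes beyond, 5′ to 3′ on the strand of the gene with the element in capitals; in CHAC1 it lies on the other strand and reads TTGCATCA here. The CHAC1 window is chr15:40953221-40953470 (plus strand, element 202 bases before the start), that of ASNS is chr7:97872409-97872658 (minus strand, 61 bases) and that of CEBPG is chr19:33373863-33374112 (plus strand, 35 bases). Distances are those of the last printed base of the element.
CHAC1: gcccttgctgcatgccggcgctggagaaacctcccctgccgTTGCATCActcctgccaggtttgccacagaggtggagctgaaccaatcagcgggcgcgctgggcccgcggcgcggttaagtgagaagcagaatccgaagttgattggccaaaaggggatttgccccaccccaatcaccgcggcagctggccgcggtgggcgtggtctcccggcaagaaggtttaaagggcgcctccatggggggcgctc
ASNS: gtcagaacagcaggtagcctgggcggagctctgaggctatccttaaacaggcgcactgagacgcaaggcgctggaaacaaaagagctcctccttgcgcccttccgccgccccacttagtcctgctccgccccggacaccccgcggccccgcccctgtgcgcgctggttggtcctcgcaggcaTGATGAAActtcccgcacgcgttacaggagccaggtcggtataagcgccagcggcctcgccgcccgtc
CEBPG: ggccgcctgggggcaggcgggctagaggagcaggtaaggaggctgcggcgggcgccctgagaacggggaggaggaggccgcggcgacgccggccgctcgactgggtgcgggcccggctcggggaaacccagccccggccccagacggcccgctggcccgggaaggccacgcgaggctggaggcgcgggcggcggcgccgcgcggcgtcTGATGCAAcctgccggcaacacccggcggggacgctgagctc

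The amino acid enzymes divided between beyond and back. All 12 on the list were lower in senescent vehicle cells than in cycling cells, beside 34.5% of all genes tested. With GNF-7 11 of 12 were higher than in cycling cells, beside 42.7%, with a median of 0.703. The serine pathway showed both places. PHGDH, its first enzyme, had 122, 128 and 129 CPM in cycling cells, 28.7, 30.5 and 30.2 CPM in vehicle and 237, 238 and 236 CPM with GNF-7, a difference of 0.91 (SE 0.04, edgeR adjusted p = 4.8e-30). PSAT1, the next enzyme, had 230.4, 235 and 234 CPM in cycling cells, 47.6, 47.9 and 47.4 CPM in vehicle and 433, 396 and 410.0 CPM with GNF-7, a difference of 0.83. PSPH, SHMT2 and MTHFD2, which complete serine synthesis and pass its carbon to folate, were back, at 0.35, 0.19 and 0.10. MTHFD2 had 272, 283 and 278 CPM in cycling cells, 60.9, 67.5 and 64.4 CPM in vehicle and 308, 288 and 296 CPM with GNF-7. Its GNF-7 libraries were all above the cycling ones, but the call was lost without replicate 1 or 3 of the cycling cells or replicate 1 of GNF-7 (0.069 to 0.0909). ALDH18A1, an enzyme of proline synthesis, was the exception: it had 119, 122 and 119 CPM in cycling cells and 58.4, 58.6 and 62.5 CPM with GNF-7, lower by −1.01 and further away than in vehicle.

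Amino acid transporters were spread around the cycling level. All 8 were lower in vehicle, and with GNF-7 4 were higher and 4 lower than in cycling cells, with a median of 0.131. For all genes tested the shares were 34.5% lower in vehicle, and 42.7% higher and 37.5% lower with GNF-7. SLC7A11, which exchanges glutamate for cystine, went beyond: it had 51.4, 54.5 and 50.9 CPM in cycling cells, 22.2, 26.4 and 23.1 CPM in vehicle and 176, 166 and 180.2 CPM with GNF-7, a difference of 1.74. SLC7A5, the large neutral amino acid transporter, was back: it had 472, 462 and 474 CPM in cycling cells, 86.1, 87.5 and 88.1 CPM in vehicle and 372, 369 and 395 CPM with GNF-7. The GNF-7 libraries stayed below the cycling ones, by −0.31 (SE 0.04, edgeR adjusted p = 1.1e-11), which was −0.0526 and not called with the filter at 5 CPM. SLC38A2, a transporter of small neutral amino acids, was lower by −0.61 and had moved further from cycling than in vehicle, with 568, 580.5 and 589.6 CPM in cycling cells and 374, 381 and 379.6 CPM with GNF-7.

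Of 12 cytosolic tRNA synthetases 11 were lower in vehicle than in cycling cells, beside 34.5% of all genes tested. With GNF-7 all 12 were higher than in vehicle, beside 29.3%. Higher than in cycling cells were 9 of 12, beside 42.7%, with a median of 0.414. WARS1, which charges tRNA with tryptophan, had 142, 139 and 142 CPM in cycling cells, 99.5, 102 and 100.2 CPM in vehicle and 529, 551 and 546 CPM with GNF-7, a difference of 1.95. GARS1, for glycine, differed by 0.91 and AARS1, for alanine, by 0.69, and both were beyond although vehicle had changed them by less than 2-fold. EPRS1, IARS1, MARS1, TARS1 and YARS1 lay within the margin, between −0.23 and 0.44.

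The brakes and secreted factors of the ISR were all higher than in cycling cells (8 of 8 tested), beside 42.7% of all genes tested. Their median was 2.45. In vehicle 4 of them were higher and 4 lower, beside 36.3% and 34.5% of all genes tested. Among the regulators, DDIT3, the transcription factor CHOP, had already been higher in vehicle. It had 11.4, 10.02 and 9.50 CPM in cycling cells, 25.1, 21.7 and 23.5 CPM in vehicle and 192, 188 and 191 CPM with GNF-7. The difference was 4.21 (SE 0.06, edgeR adjusted p = 7.3e-57). NUPR1, a stress-induced chromatin protein, had 2.33, 2.96 and 2.61 CPM in cycling cells, 5.07, 5.57 and 4.57 CPM in vehicle and 70.9, 68.01 and 71.5 CPM with GNF-7, a difference of 4.73. DDIT3 and NUPR1 moved away from the cycling level in the direction that senescence had taken, as did GDF15, a secreted stress factor. GDF15 had 197, 187 and 189 CPM in cycling cells, 902, 852 and 878 CPM in vehicle and 1241, 1320 and 1336 CPM with GNF-7, a difference of 2.76. SESN2, which restrains mTORC1, differed by 2.46 and had 47.02, 43.3 and 47.2 CPM in cycling cells against 239.5, 254 and 263 CPM with GNF-7.

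Outside the list, the other lowered genes beyond were ARHGAP9, INHBE, KCTD15, LINC02806, MAP2K6, NIBAN1, OSCAR, PCK2, ENSG00000260498 and ENSG00000274276. OSCAR, an immunoglobulin-like receptor, had 8.69, 11.1 and 10.4 CPM in cycling cells, 2.46, 3.70 and 2.21 CPM in vehicle and 35.0, 37.1 and 37.6 CPM with GNF-7, a difference of 1.86. MGLL, monoacylglycerol lipase, was back at 0.36 after −1.48 in vehicle, and TSPAN18, a tetraspanin, at −0.29 after −1.43. The following were chosen after their values were seen. PCK2, the mitochondrial enzyme that makes phosphoenolpyruvate, had mean levels of 46.3 CPM in cycling cells, 19.99 CPM in vehicle and 153 CPM with GNF-7. XPOT, which exports tRNA from the nucleus, had 348, 132 and 341 CPM, and EIF4EBP1, an inhibitor of cap-dependent translation, had 181, 75.3 and 178 CPM; both were back. BCAT1, which transaminates branched amino acids, had 275, 118 and 253 CPM and was back as well.

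**Figure D3:**
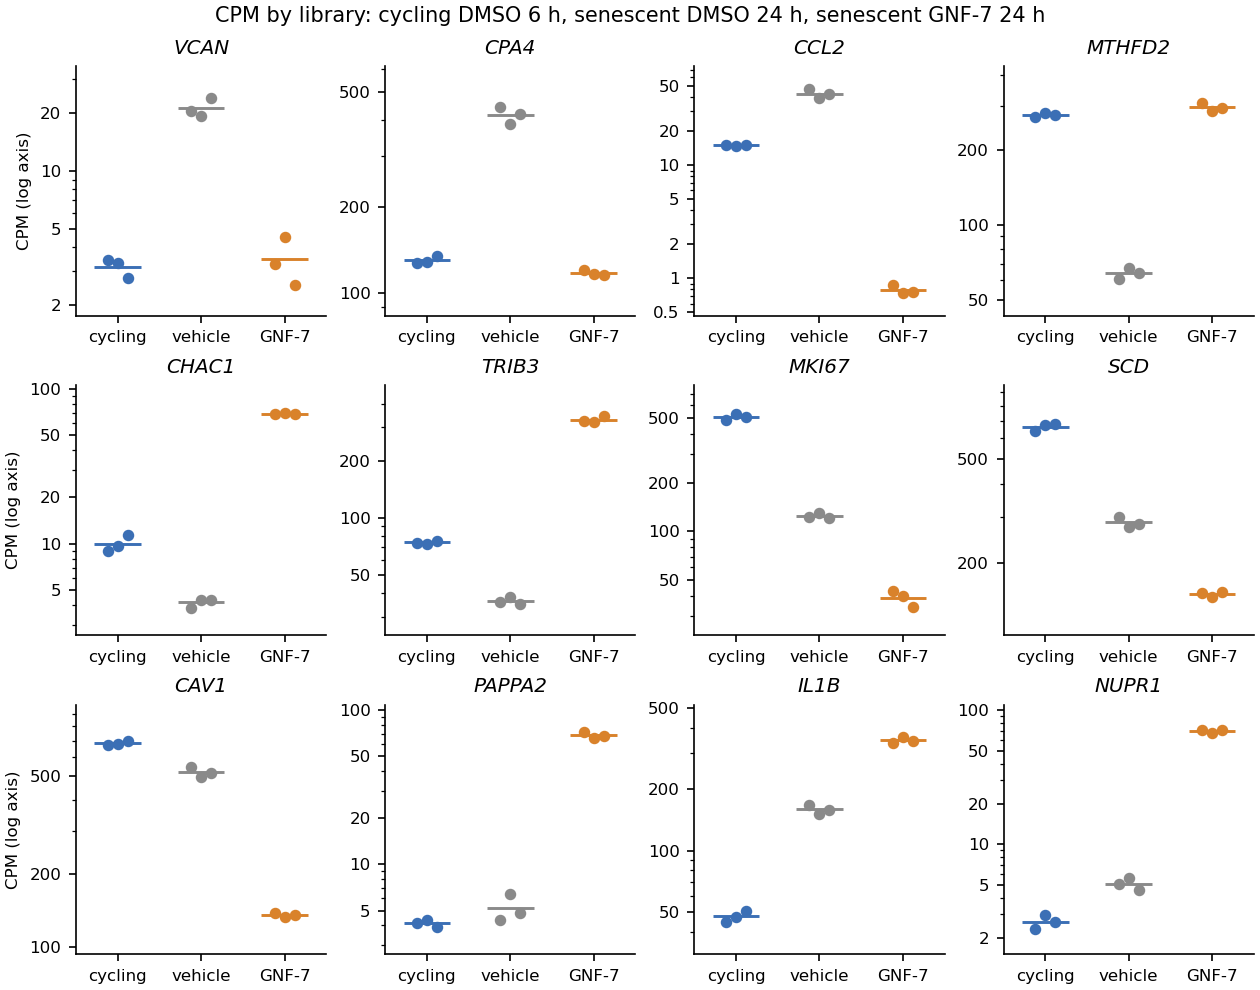
Points are CPM of single libraries on a log axis and lines are means of 3 libraries, for cycling cells in DMSO 6 h, senescent cells in DMSO 24 h (vehicle) and senescent cells in GNF-7 24 h. VCAN, CPA4 and MTHFD2 lie near the cycling level with GNF-7, CCL2, CHAC1 and TRIB3 cross it, and MKI67, SCD, CAV1, PAPPA2, IL1B and NUPR1 lie further from it than in vehicle.

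Of the 29 raised genes that were back, 1 was on the SASP list and 2 were on the matrix list, and of the 6 beyond 1 was on the SASP list. VCAN (chr5:83471465-83582303), the proteoglycan versican, showed the largest return by the naming rule: it had 3.42, 3.31 and 2.77 CPM in cycling cells, 20.5, 19.3 and 24.03 CPM in vehicle and 3.27, 4.55 and 2.56 CPM with GNF-7. The GNF-7 and cycling libraries overlapped, and the difference was 0.14 (SE 0.15, edgeR adjusted p = 0.41) with a 95% interval from −0.17 to 0.44. CPA4, a carboxypeptidase, was back at −0.15 with 128, 129 and 134 CPM in cycling cells, 442, 389 and 421 CPM in vehicle and 120.2, 117 and 116 CPM with GNF-7. SLC2A12, a glucose transporter, was back at −0.31 after 2.00 in vehicle, MMP16, a membrane-bound metalloprotease, at 0.10 after 1.41, and TNC, tenascin C, at 0.46 after 1.16.

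Of the 6 raised genes beyond, CCL2 (chr17:34255218-34257203), the chemokine that attracts monocytes, went furthest. It had 15.2, 14.9 and 15.02 CPM in cycling cells, 47.1, 39.2 and 42.6 CPM in vehicle and 0.868, 0.747 and 0.764 CPM with GNF-7. No libraries of the groups overlapped, which follows from the rule for beyond at a change of this size. GNF-7 cells were lower than cycling cells by −4.24 (SE 0.14, edgeR adjusted p = 2.6e-36). TUBA1A, an alpha tubulin, had 199.6, 204 and 212 CPM in cycling cells, 477, 419.8 and 471 CPM in vehicle and 102, 98.6 and 96.05 CPM with GNF-7, a difference of −1.05. GLIPR1, of the cysteine-rich secretory protein family, differed by −0.85 and by −2.10 against vehicle, and FAT4, a cadherin of planar polarity, by −1.01 after 1.01. CCL7 and PDE7B were the other two; both had low levels, and the test of PDE7B past 1.5-fold gave an edgeR adjusted p of 0.0495.

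The secretory list held genes in every place. Of 30 SASP members 23 were tested. With GNF-7, 13 were higher and 7 lower than in cycling cells, with a median of 0.654, beside 42.7% and 37.5% of all genes tested. In vehicle 17 were higher and 3 lower, with a median of 0.877, beside 36.3% and 34.5%. Of the 11 members raised by senescence 7 were still away, 1 was back, 1 was beyond (CCL2) and 2 were undecided, where 90.6% of all raised genes were still away. IL1B, interleukin 1 beta, had 44.8, 47.5 and 50.7 CPM in cycling cells, 168, 151 and 159 CPM in vehicle and 336, 360.2 and 344 CPM with GNF-7, a difference of 2.86 (SE 0.04, edgeR adjusted p = 1.0e-53). MMP1, the interstitial collagenase, had 7.88, 9.88 and 8.10 CPM in cycling cells, 28.3, 27.6 and 26.1 CPM in vehicle and 65.9, 70.5 and 67.7 CPM with GNF-7, a difference of 2.98. Both were further from the cycling level than in vehicle. IL6 was higher by 2.85 at a low level, with 0.483, 0.516 and 0.588 CPM in cycling cells and 3.94, 4.19 and 3.45 CPM with GNF-7. CXCL8, the neutrophil chemokine, went the other way: it had 29.4, 31.6 and 31.4 CPM in cycling cells, 6.64, 6.95 and 6.42 CPM in vehicle and 3.34, 3.57 and 2.99 CPM with GNF-7, a difference of −3.22. INHBA, a subunit of activin A, had 3.38, 3.44 and 3.10 CPM in cycling cells, 9.22, 8.43 and 8.90 CPM in vehicle and 2.84, 2.92 and 2.29 CPM with GNF-7, and its interval was too wide to place it. CXCL1, IGFBP3 and TNFRSF11B were at or near 0 throughout.

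Matrix genes were lower with GNF-7 than in vehicle in 15 of 19 tested members of 24 and higher in 4, with a median of −0.766. Over all genes tested 29.7% were lower and 29.3% higher. Against cycling cells 6 members were higher and 8 lower, beside 42.7% and 37.5% of all genes tested. Their median of 0.034 was −0.0057 without replicate 2 of GNF-7 at 24 h and 0.173 with the filter at 5 CPM. FN1, fibronectin, had 1084, 1145 and 1146 CPM in cycling cells, 1971, 1791 and 1894 CPM in vehicle and 885, 831 and 864 CPM with GNF-7, a difference of −0.39 within the margin. SPARC, a collagen-binding glycoprotein whose change in vehicle was under 2-fold, was beyond. It had 1830, 1866 and 1897 CPM in cycling cells, 3472, 2999 and 3270 CPM in vehicle and 638, 602 and 628 CPM with GNF-7, a difference of −1.58. Other members went far below. THBS1, thrombospondin 1, had 1109, 1205 and 1232 CPM in cycling cells, 519.6, 445 and 482 CPM in vehicle and 63.5, 61.9 and 62.8 CPM with GNF-7, a difference of −4.24 (SE 0.07, edgeR adjusted p = 3.2e-18). CCN1 and CCN2, matricellular proteins known as targets of the YAP coactivator, were lower by −3.02 and −3.46. COL6A2, a chain of collagen VI, was higher by 1.15.

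Proliferation genes were still away in nearly every case. All 52 members were lower with GNF-7 than in cycling cells, beside 37.5% of all genes tested, with a median of −3.06. In vehicle 51 were lower and 1 higher, beside 34.5% and 36.3%, with a median of −2.14. Senescence had lowered 49 of them at least 2-fold, and all 49 were still away, beside 86.8% of all lowered genes. Against vehicle 49 were lower and 2 higher, beside 29.7% and 29.3% of all genes tested. MKI67 (chr10:128096659-128126385), the marker of cycling cells, had 484, 532 and 509.5 CPM in cycling cells, 123, 130.4 and 122 CPM in vehicle and 42.8, 40.1 and 34.3 CPM with GNF-7, a difference of −3.70 (SE 0.05, edgeR adjusted p = 8.2e-49). Every GNF-7 library was below every vehicle library. FAM111B, a protease tied to replicating cells, had 70.99, 70.2 and 67.7 CPM in cycling cells, 5.01, 5.11 and 5.18 CPM in vehicle and 0.468, 0.455 and 0.398 CPM with GNF-7, a difference of −7.29. MCM10, a replication initiation factor, differed by −5.85 and MYBL2, a transcription factor of cell cycle genes, by −5.82.

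The 3 stages on the list moved alike in direction: the medians were −3.62 over 10 regulators of entry into S phase, −3.31 over 21 replication genes and −2.91 over 21 mitosis genes. CDK1 had 139, 149.6 and 147 CPM in cycling cells, 23.4, 19.6 and 21.7 CPM in vehicle and 5.64, 6.11 and 5.88 CPM with GNF-7, a difference of −4.63. RRM2, the ribonucleotide reductase subunit of S phase, had 338, 345 and 346 CPM in cycling cells, 47.1, 41.3 and 41.4 CPM in vehicle and 7.82, 7.70 and 8.60 CPM with GNF-7. Smaller differences were found in CDK4, which was still away at −0.71, and CCNE1, which was undecided at −0.68. CCND1, cyclin D1, was the 1 member that senescence in vehicle had left higher: it had 772, 789.7 and 764 CPM in cycling cells, 888, 884 and 887 CPM in vehicle and 430.2, 455 and 451 CPM with GNF-7, a difference of −0.80. EZH2, a histone methyltransferase and one of the nuclear markers, moved slightly toward cycling, from −2.27 in vehicle to −2.06.

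The cell cycle homology region (TTTGAA), often paired with a CCAAT box, and the E2F site (TTTNGCGC) are elements of genes that are repressed in non-dividing cells. Windows that held both TTTGAA and CCAAT made up 3.47% over all genes tested, 7.49% (107 of 1429) over lowered genes still away and 20% over the proliferation list. TTTNGCGC was in 2.14% of all windows, 4.2% of those of lowered genes still away and 18% of those of the list. Genes that were back had few windows: both TTTGAA and CCAAT were in 3 of 39 windows of raised genes back (7.69%) and 1 of 28 of lowered genes back (3.57%), and TTTNGCGC was in 2 of 39 (5.13%) and 2 of 28 (7.14%). These shares were not below those of lowered genes still away, apart from that of TTTGAA with CCAAT in lowered genes back. TTTGAA is short and by itself occurred in 9.42% of all windows. Shown are the windows of the mitotic kinase PLK1 (GRCh38.p14, chr16:23678639-23678888, plus strand) and the mitotic cyclin CCNB2 (chr15:59104896-59105145, plus strand), with TTTGAA and CCAAT in capitals. In both, the last base of TTTGAA lies 24 bases before the transcription start. PLK1 differed from cycling cells by −2.39 and CCNB2 by −2.40.
PLK1: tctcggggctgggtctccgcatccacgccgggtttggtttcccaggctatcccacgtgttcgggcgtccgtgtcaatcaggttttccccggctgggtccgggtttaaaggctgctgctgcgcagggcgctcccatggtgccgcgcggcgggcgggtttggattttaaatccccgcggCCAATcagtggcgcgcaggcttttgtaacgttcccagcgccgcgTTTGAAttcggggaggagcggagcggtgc
CCNB2: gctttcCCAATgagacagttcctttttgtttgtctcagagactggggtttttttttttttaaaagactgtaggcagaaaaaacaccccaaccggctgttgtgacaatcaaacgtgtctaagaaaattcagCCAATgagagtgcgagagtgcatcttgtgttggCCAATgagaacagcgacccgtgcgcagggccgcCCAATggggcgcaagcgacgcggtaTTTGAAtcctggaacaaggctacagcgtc

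Nuclear markers whose loss accompanies senescence stayed low. All 13 were lower with GNF-7 than in cycling cells, beside 37.5% of all genes tested, with a median of −2.50 against −1.95 in vehicle. Senescence had lowered 12 at least 2-fold and all 12 were still away, beside 86.8% of all lowered genes. LMNB1, lamin B1, had 227, 244 and 231 CPM in cycling cells, 32.9, 32.7 and 30.6 CPM in vehicle and 10.9, 11.3 and 10.5 CPM with GNF-7, a difference of −4.42 (SE 0.06, edgeR adjusted p = 7.8e-57). UHRF1, which maintains DNA methylation, differed by −5.06. HMGB2 differed between vehicle and GNF-7 by less than the test could call (−0.04, edgeR adjusted p = 0.48). HMGB3 was the 1 member within the margin, at −0.38.

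Most p53 targets stayed above the cycling level. Of 22 targets 18 were higher and 1 lower than in cycling cells, with a median of 0.922, beside 42.7% and 37.5% of all genes tested. In vehicle 21 were higher and 0 lower, with a median of 0.894, beside 36.3% and 34.5%. All 9 raised members were still away, as were 90.6% of all raised genes. CDKN1A (chr6:36676460-36687339), the cyclin-dependent kinase inhibitor p21, had 184, 185 and 189 CPM in cycling cells, 551, 559.5 and 569 CPM in vehicle and 468, 459 and 477 CPM with GNF-7, a difference of 1.33 (SE 0.04, edgeR adjusted p = 1.1e-41). It had moved toward cycling by a log2 difference of −0.26 from vehicle. FAS, a death receptor, also moved toward cycling, to 0.91 from 1.18, while MDM2, the ubiquitin ligase of p53, reached 1.89 from 1.63 and GADD45A, a stress sensor, 1.85 from 1.02. PLK2, a kinase and p53 target, was the 1 lower member: it had 279, 298 and 294 CPM in cycling cells, 354, 322 and 332 CPM in vehicle and 81.9, 80.8 and 76.9 CPM with GNF-7, a difference of −1.86. Of the other kinase inhibitors CDKN2C, known as an E2F-regulated gene, was lower by −4.02 and CDKN1C higher by 2.28, while CDKN2A and CDKN2B had 0 counts in all 9 libraries of the 3 groups. A count of 0 allows up to 3 counts per library, at most 0.115 CPM.

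Sterol and fatty acid synthesis lay below the cycling level in vehicle and further below it with GNF-7. Of 26 tested sterol genes 22 were lower and 4 higher than in cycling cells, beside 37.5% and 42.7% of all genes tested. Their median was −1.55, against −0.662 in vehicle. All 9 lowered members were still away, beside 86.8% of all lowered genes. SREBF2 (chr22:41833079-41907308), which encodes the factor that drives these genes, had 277.6, 285 and 292 CPM in cycling cells, 209, 207 and 209.8 CPM in vehicle and 103, 109.5 and 117 CPM with GNF-7. The groups did not overlap, and the difference from cycling cells was −1.37 (SE 0.04, edgeR adjusted p = 6.9e-37), where vehicle had given −0.45. ABCA1, the cholesterol exporter, was higher, with 7.80, 8.26 and 10.3 CPM in cycling cells, 23.2, 21.8 and 20.2 CPM in vehicle and 41.05, 38.7 and 36.95 CPM with GNF-7, a difference of 2.13. All 8 fatty acid genes were lower, beside 37.5% of all genes tested, with a median of −1.99, and further below than in vehicle for the pair named here. SCD, the stearoyl-CoA desaturase, had 639, 671 and 681 CPM in cycling cells, 301, 274 and 283 CPM in vehicle and 153, 149 and 154.5 CPM with GNF-7, a difference of −2.12. FASN, fatty acid synthase, had 648.5, 660.4 and 671 CPM in cycling cells, 292, 295 and 297.5 CPM in vehicle and 172, 188 and 189.5 CPM with GNF-7, a difference of −1.85. The sterol regulatory element TCACNCCAC was in 0.877% of all windows and in 1 of 25 windows of the sterol list, a share of 4% with an interval from 0.101% to 20.4%.

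**Figure D4:**
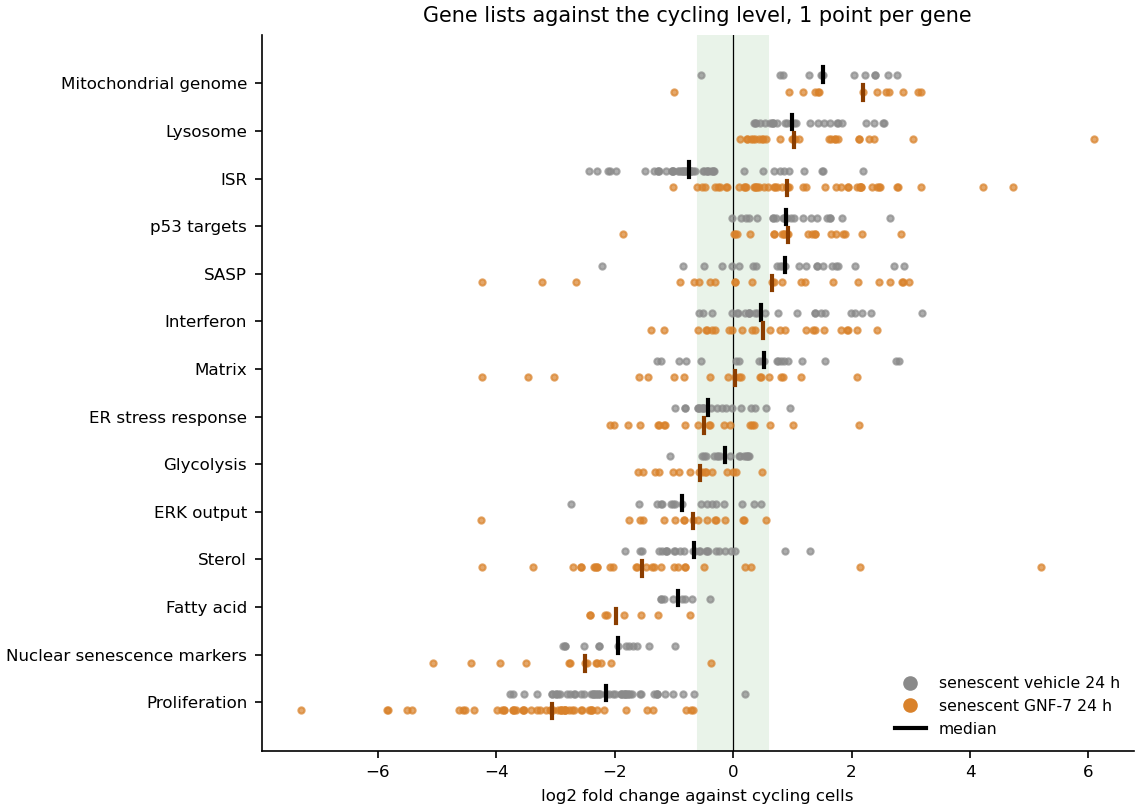
Each point is 1 tested gene of a list, with its log2 difference from cycling cells in senescent vehicle cells (grey) and with GNF-7 at 24 h (orange); bars are medians and the shaded band is 1.5-fold around the cycling level. The ISR median crosses from −0.745 to 0.905, the proliferation median moves from −2.14 to −3.06 and the lysosome median stays near 1.

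Lysosomal genes stayed above the cycling level. All 26 members were higher with GNF-7 than in cycling cells, with a median of 1.03, against 26 of 26 higher in vehicle with a median of 1.00. Over all genes tested 42.7% were higher with GNF-7 and 36.3% in vehicle. Against vehicle 9 members were higher and 10 lower, beside 29.3% and 29.7% of all genes tested. All 13 raised members were still away, beside 90.6% of all raised genes. PSAP, the precursor of the saposins, had 821, 829 and 839 CPM in cycling cells, 3069, 2859 and 3008 CPM in vehicle and 3613, 3579 and 3675 CPM with GNF-7, a difference of 2.13. CTSZ, cathepsin Z, with 207, 205 and 210.1 CPM in cycling cells, 355, 307 and 333 CPM in vehicle and 239, 216 and 221 CPM with GNF-7, was back at 0.12. Its call as higher was lost with limma voom (0.117). It was also lost without replicate 1, 2 or 3 of the cycling cells or replicate 1 of GNF-7 (0.0684 to 0.12). GLB1, the source of the beta-galactosidase activity used to stain senescent cells, was higher by 0.33, within the margin. ATP6V0D2, a proton pump subunit, stood apart at 6.10 (SE 0.12, edgeR adjusted p = 7.0e-49): it had 1.37, 0.861 and 0.881 CPM in cycling cells, 4.82, 6.84 and 6.27 CPM in vehicle and 70.6, 70.5 and 68.7 CPM with GNF-7.

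The ER stress response adjusts the folding capacity of the endoplasmic reticulum through chaperones, folding enzymes and their sensors. Of its 20 members 6 were higher and 13 lower than in cycling cells, beside 42.7% and 37.5% of all genes tested. The median was −0.493 (−0.235 with the filter at 5 CPM), against −0.429 in vehicle. MANF, a secreted ER stress protein, had 115, 116 and 120.0 CPM in cycling cells, 84.7, 76.6 and 85.4 CPM in vehicle and 28.1, 26.1 and 29.02 CPM with GNF-7, a difference of −2.08. PDIA4, a disulfide isomerase, differed by −1.78 and HSP90B1, the ER form of HSP90, by −1.57. ERN1, the sensor IRE1 alpha, was higher by 2.13, with 8.37, 8.47 and 8.23 CPM in cycling cells and 36.2, 37.5 and 35.8 CPM with GNF-7. HSPA5, the chaperone BiP, lay within the margin at −0.15.

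Genes that read out ERK signalling were lower than in cycling cells in 14 of 17 members and higher in 2. Over all genes tested these shares were 37.5% and 42.7%. The list median was −0.674 against −0.855 in vehicle. Against vehicle 5 were higher and 7 lower, beside 29.3% and 29.7% of all genes tested. ETV5, an ETS factor, was back: it had 113, 118 and 119 CPM in cycling cells, 52.1, 49.3 and 51.1 CPM in vehicle and 131, 134 and 134 CPM with GNF-7, a difference of 0.19. ETV4, its relative, moved toward cycling and was still away, at −1.76 after −2.73 in vehicle. FOS varied within groups, with 18.5, 49.1 and 36.3 CPM in cycling cells and 2.10, 1.33 and 2.02 CPM with GNF-7. MYC was lower by −1.56.

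Glycolytic genes were mostly below the cycling level, and further below than in vehicle. Of 16 members 13 were lower and 1 higher than in cycling cells, beside 37.5% and 42.7% of all genes tested. The median was −0.554 (−0.297 with the filter at 5 CPM) against −0.143 in vehicle. Lower than in vehicle were 14 of 16, beside 29.7% of all genes tested. LDHA, lactate dehydrogenase, had 2010, 2059 and 2075 CPM in cycling cells, 1751, 1637 and 1705 CPM in vehicle and 724, 702 and 717 CPM with GNF-7, a difference of −1.52. PGAM1, a phosphoglycerate mutase, differed by −1.61 and SLC2A1, the glucose transporter GLUT1, by −1.32.

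Interferon-stimulated genes divided. Of 24 tested members of 28, 14 were higher and 5 lower than in cycling cells, with a median of 0.501 (0.81 with no filter and 0.964 with the filter at 5 CPM) against 0.469 in vehicle; over all genes tested 42.7% were higher and 37.5% lower. Of the 10 raised members 9 were still away, near the 90.6% of all raised genes. IFI6, an interferon-induced protein of mitochondria, moved toward cycling: it had 9.61, 9.71 and 9.47 CPM in cycling cells, 80.97, 92.5 and 89.2 CPM in vehicle and 45.8, 53.98 and 54.5 CPM with GNF-7, a difference of 2.42. STAT2, the signal carrier, moved further, to 2.09 from 1.48. IFITM2 lay past the margin with GNF-7, at −1.38 after −0.35.

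Of 10 genes of the antioxidant factor NRF2 5 were higher and 3 lower, beside 42.7% and 37.5% of all genes tested. Their median was 0.045 (0.442 with the filter at 5 CPM). GCLM, a subunit of the enzyme that starts glutathione synthesis, had 70.6, 75.3 and 75.3 CPM in cycling cells, 47.1, 47.3 and 45.4 CPM in vehicle and 71.5, 68.8 and 67.1 CPM with GNF-7, and lay within the margin at −0.09. HMOX1, heme oxygenase 1, was far above, with 16.8, 17.2 and 19.5 CPM in cycling cells, 97.8, 96.5 and 98.5 CPM in vehicle and 192, 179.9 and 187 CPM with GNF-7, a difference of 3.38. Of 24 apoptosis genes 10 were higher and 7 lower, no more than the 42.7% and 37.5% of all genes tested, with a median of 0.042, which was between −0.0235 and −0.00207 without replicate 1 or 2 of the cycling cells or replicate 2 of GNF-7. BCL2A1, a survival protein, was back: it had 2.94, 2.93 and 3.10 CPM in cycling cells, 0.478, 0.212 and 0.232 CPM in vehicle and 2.94, 2.89 and 2.42 CPM with GNF-7. HRK, a killer protein of the BCL2 family, had 2, 0 and 4 counts in the cycling libraries and 80, 92 and 77 with GNF-7, which were 2.67, 2.99 and 2.56 CPM. BMF, another such protein, was still away and further, at 2.43 after 2.06. Of 13 protein-coding genes of the mitochondrial genome 12 were higher than in cycling cells, beside 42.7% of all genes tested. Their median was 2.201 against 1.51 in vehicle, and MT-ND6, the one encoded on the other strand, was lower.

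Some genes lay near the cycling level in senescent vehicle cells and away from it with GNF-7. By the same margin and test, 356 genes were higher in this way (1.92% of genes tested) and 748 were lower (4.03%), among 5602 genes that vehicle had left within 1.5-fold. PAPPA2 (chr1:176463171-176845605), a protease that cleaves IGF-binding proteins, had 4.14, 4.37 and 3.92 CPM in cycling cells, 4.37, 6.42 and 4.84 CPM in vehicle and 72.1, 65.5 and 68.2 CPM with GNF-7, a difference of 4.05 (SE 0.10, edgeR adjusted p = 1.3e-43). GTPBP2, a factor that rescues stalled ribosomes, had 75.7, 72.4 and 71.6 CPM in cycling cells, 89.3, 92.04 and 93.96 CPM in vehicle and 362, 390.3 and 369 CPM with GNF-7, a difference of 2.35. SYTL1, a membrane trafficking protein, and PTPDC1, a phosphatase, were higher by 2.60 and 2.38. MYBL1, a relative of MYBL2, was lower: it had 70.3, 73.4 and 72.1 CPM in cycling cells, 58.2, 58.1 and 58.3 CPM in vehicle and 9.59, 9.74 and 8.43 CPM with GNF-7, a difference of −2.96. CAV1, the coat protein of caveolae, had 668, 681 and 695 CPM in cycling cells, 548, 498 and 517 CPM in vehicle and 138, 133 and 136 CPM with GNF-7, a difference of −2.33. LRRC17 and PRICKLE1, a planar polarity protein, were lower by −2.94 and −2.34. The vehicle and cycling libraries overlapped for PAPPA2, SYTL1 and LRRC17. The GNF-7 libraries stood apart for all 8 genes, which follows from naming the genes with the largest differences.

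The genes furthest above the cycling level were ones that cycling cells barely expressed. KCP, a secreted regulator of BMP signalling, had 0.845, 0.998 and 0.783 CPM in cycling cells, 4.82, 6.88 and 6.81 CPM in vehicle and 117, 128 and 128 CPM with GNF-7, a difference of 7.15. OLAH, a thioesterase of fatty acid synthesis, differed by 7.62 and LCE1B, a late cornified envelope protein, by 7.69, each from cycling means near the floor. ZNF117, a zinc finger gene, had 0 counts in the 3 cycling libraries and 17.1, 22.8 and 17.9 CPM with GNF-7, at least 188-fold higher than a floor of 3 counts per library. Genes not annotated as protein-coding made up 1467 of the 3302 raised genes still away (44.4%), 145 of the 1369 lowered genes still away (10.6%) and 5038 of all 18563 genes tested (27.1%). Types came from GENCODE release 29, which held 58452 of the 60670 genes of the count table. Genes without an entry there have no known type and fall into these counts. APLN, the peptide apelin, was among the lowered genes furthest below, at −5.81 with 16.1, 14.98 and 19.6 CPM in cycling cells, 0.734, 0.776 and 0.813 CPM in vehicle and 0.367, 0.292 and 0.232 CPM with GNF-7.

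The 6 h GNF-7 libraries share the cycling time label of 6 h, and their differences from the same cycling libraries are set beside those at 24 h. At 6 h 7353 genes were higher (39.6%) and 6693 lower (36.1%) than in cycling cells. Between 6 h and 24 h of GNF-7, 8870 genes were called. VCAN had 15.7, 14.7 and 16.3 CPM at 6 h, a difference from cycling of 2.30, against 0.14 at 24 h. CCL2 had 3.92, 4.18 and 4.84 CPM, already beyond the cycling level at −1.80. GLIPR1 differed by 0.66 at 6 h and −0.85 at 24 h, and FAT4 by 0.79 and −1.01, so both crossed the cycling level between the times. SLC7A5 changed sign, with 736, 682 and 728 CPM at 6 h, a difference of 0.61 against −0.31. At 24 h it was within the margin, and with the filter at 5 CPM it was −0.0526 and not called. PHGDH, with 133, 128 and 137 CPM at 6 h, differed by 0.07 (edgeR adjusted p = 0.11) and by 0.91 at 24 h. MTHFD2 and CHAC1 lay close at both times, at 0.14 and 0.10 and at 2.58 and 2.78. MKI67 went from −2.15 to −3.70 and MYBL1 from −0.80 to −2.96. PAPPA2 went from 1.70 to 4.05, ATP6V0D2 from 3.63 to 6.10, and IL6 from 3.71 to 2.85. No cycling group at 24 h was compared.

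Counts come from bulk RNA, so fewer cells of a type and less RNA per cell cannot be told apart. Of 128 named genes checked in GENCODE release 29, 13 share exon positions with another gene on the same strand, among them TERF2, ASNS, DDIT3, MDM2, RRM2, KCP and ZNF117, and 42 overlap a gene on the other strand. Their counts are uncertain, since the strand setting is not given in the sources used here.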

How the data were processed

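RNA sequencing counts per gene of 15 libraries in 5 groups of 3 were used as deposited. Per the submitters' processing notes, the tools named are bcl2fastq 2.20.0.422, STAR 2.7.9a and featureCounts 1.5.1 with GRCh38; the annotation release and the strand setting are not given in the sources used here. The authors' values are whole-number counts, not normalized, from a stranded mRNA library kit per the labels' protocols. Of 60673 table rows, 3 that formed 1 broken entry were left out (at most 0.00475% of a library), and 60400 of 60670 genes had a symbol. Every count column was matched to 1 sample. Coordinates are those of GENCODE release 29.

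Counts of all 15 libraries were fitted by group with edgeR 4.0.16 (R 4.3.3): TMM scaling, the default expression filter (18563 genes kept), the quasi-likelihood test, and glmTreat for differences above 1.5-fold, with Benjamini-Hochberg adjustment over all genes tested. Standard errors are the log2 fold change divided by the square root of the quasi-likelihood F statistic, and dispersions were estimated robustly, so genes with unusual spread have fewer degrees of freedom. The common biological coefficient of variation was 4.64%. Libraries of a group differed by more than sampling noise, so none was counted as a repeat. Intervals are 95% intervals. Those of gene differences use the standard errors above and include the spread between libraries. Those for shares of promoter windows are exact Clopper-Pearson and cover counting error only. Comparisons used the groups GNF-7 24 h, vehicle 24 h and cycling, with GNF-7 6 h beside them.

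Named genes were members of the listed pathways, TERF2 and EIF2AK4, and, per class, the 4 protein-coding genes with a mean of at least 5 CPM and the largest change (vehicle against cycling for back, GNF-7 against cycling otherwise); exceptions are stated where they stand, and some list members are not reported here by name. The comparison, lists and rule were chosen with earlier results of these data known. On simulated counts for 15154 genes, the scripts placed 89 of 100 genes as back, 96 of 100 as beyond, 100 of 100 as still away and 94 of 100 as away only with GNF-7, each after a seeded change, and called 23 of 14654 unchanged genes. The senescence change was 4-fold for back, beyond and still away. Simulated back genes lay exactly at the cycling level, all genes shared the common dispersion and genes with few counts were left out. Genes back in the data had smaller senescence changes, with log2 medians of 1.16 (raised) and −1.25 (lowered). Recovery of such genes was not tested. Alternatives were other scalings and filters, DESeq2 1.42.0, limma voom 3.58.1, fewer groups, a replicate block, each library left out, other margins and the 6 h vehicle reference. Promoter windows were read from RefSeq sequences with Python 3.11.15.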

Additional observations from a re-analysis of the deposited data

Results flagged for a closer look

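The 9 genes below differed between the 6 h and 24 h GNF-7 libraries by the edgeR test of that difference itself, given here as the log2 difference of 24 h minus 6 h. Among genes back at the cycling level, SLC7A5 differed by −0.92. Among genes beyond the cycling level, CCL2 differed by −2.44, FAT4 by −1.79, GLIPR1 by −1.51 and PHGDH by 0.84. Among genes away from it, ATP6V0D2 differed by 2.47, PAPPA2 by 2.35, MYBL1 by −2.16 and IL6 by −0.86. IL6 was nearer the cycling level at 24 h than at 6 h; MYBL1, PAPPA2 and ATP6V0D2 were further from it. They were chosen from the genes above after their values were seen. Between the times 8870 of all genes tested were called.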

How the results depend on the processing

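Across 21 alternative settings, 14 counts of genes gave 282 values, of which the following moved by more than 1.5 times. With a filter at a mean of 5 CPM, which tests fewer genes, 4961 genes were called higher, 1885 at least 2-fold higher and 1386 at least 2-fold lower; 1271 were raised with 1196 still away, and 838 were lowered with 10 beyond and 773 still away. That filter also moved the share of windows of lowered genes still away with TTTGAA and CCAAT to 10.4%. With a margin of 2-fold, 125 raised genes were back and 2 beyond, and 115 lowered genes were back and 11 beyond. With the narrower margin, 7 raised genes were back and 12 beyond, and 8 lowered genes were back. DESeq2 called 7913 higher and 6931 lower, limma voom 7941 and 6986, RLE size factors 7949 and 6957, no filter 8963 and 7049, and the 3 groups alone 7682 and 6898. Scaling by total counts called 8242 and 6662, and the all-gene median became 0.176 in place of 0.125. List medians that kept their sign and moved by over 1.5 times with the filter at 5 CPM were those of the interferon (0.964; 0.81 with no filter), ER stress (−0.235), glycolysis (−0.297), NRF2 (0.442), apoptosis (0.28), matrix (0.173), CDK inhibitor (−0.442) and lineage (−0.0993) genes, and the all-gene median became 0.0132 (0.207 with no filter); other such moves were of medians under 0.05, with total counts, no filter or a library left out. The medians that changed sign were those of the lineage markers (0.408 with no filter), the apoptosis genes (−0.0235 to 0.0488 over the libraries left out, −0.00207 and −0.0157 among them) and the matrix genes (−0.0057 without GNF-7 24 h replicate 2, up to 0.0697 without the others); the cause was not tested. Same-numbered libraries did not deviate together (r between −0.0273 and 0.0579), so the numbers were not taken as pairs; with the replicate block 7961 genes were higher and 6993 lower, 29 raised genes were back and 6 beyond, and 32 lowered genes were back and 17 beyond. Leaving out each of the 9 libraries in turn, the genes called higher ranged from 7722 to 8162 and lower from 6820 to 7033, those at least 2-fold from 5082 to 5416 and 2627 to 2723, raised genes from 3552 to 3706 (back 23 to 35, beyond 5 to 6, still away 3190 to 3288), lowered genes from 1561 to 1640 (back 24 to 34, beyond 15 to 18, still away 1348 to 1423) and genes away only with GNF-7 from 302 to 343 higher and 673 to 769 lower. The shares of C/EBP-ATF windows ranged from 9.68% to 15.4% for back and 21.4% to 30.8% for beyond (5.43% and 36.4% with the 2-fold margin), those with TTTGAA and CCAAT from 7.29% to 7.55%, those with TTTNGCGC from 4.13% to 4.37%, and the difference in mitochondrial share from 18.54 to 19.31 percentage points. Of 2524 values of single named genes, 2472 kept direction and call, 23 lost the call, 12 gained it and 17 changed sign. The sign changed with the filter at 5 CPM, which shifted named genes by 0.26, for EIF4EBP1 and XPOT (0.23 each), GCLM (0.164), TARS1 (0.145), BCAT1 (0.139), CPA4 (0.112), HSPA5 (0.109) and EPRS1 (0.0302), and with total counts for EIF4EBP1 (0.0227) and XPOT (0.0225). It also changed for PCDHGC5 with limma voom (−0.0208) and without single libraries (−0.249 to 0.269), for VCAN without GNF-7 24 h replicate 2 (−0.117; range to 0.309) and for EIF4EBP1 without the same library (0.000585; range from −0.0548). Depth limits genes near the floor of 3 counts per library, such as those absent from cycling cells.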
